A study of Mus musculus with 3 samples.

Results

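R1 is 1 of 9 clusters into which the study's authors divided single macrophages sorted from injured mouse quadriceps, and its members are all cells that carry this cluster name in the deposited cell table. It held 349 of 4374 cells, and the other 4025 cells served as its comparison. The wounds, made by volumetric muscle loss, an operation that removes a piece of muscle, received urinary bladder matrix (UBM, a decellularised extracellular matrix), polycaprolactone (PCL, a synthetic polyester) or saline. Cells were sorted 1 week after surgery, and each treatment gave 1 droplet library. The sources used here name no strain, age, sex or genetic alteration of the mice, no number of mice per library and no markers of the sort.

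The UBM library held 289 R1 cells among its 2280 cells (12.7%, exact binomial 95% interval 11.3 to 14.1%), the PCL library 14 among 1753 (0.799%, 0.437 to 1.34%) and the saline library 46 among 341 (13.5%, 10.0 to 17.6%). R1 cells gave 2423457 unique molecular identifiers (UMIs, counted RNA molecules) with UBM, 109489 with PCL and 288279 with saline. Their median depth was 7461 UMIs per R1 cell against 5249 per other cell with UBM, 7668 against 5657 with PCL, and 5215.5 against 4389 with saline. Levels are given as counts per 1000000 UMIs (CPM), and a gene without any count in R1 may still lie at up to 1.24 CPM with UBM, 27.4 CPM with PCL and 10.4 CPM with saline. When all cells were clustered again without the marker genes, R1 cells fell mainly into a pair of new clusters with 166 and 137 of them, and the first of these took 6.75% of UBM, 0.513% of PCL and 21.7% of saline cells. Of the barcodes, 6 occurred in a pair of libraries, and these included 3 R1 cells. Because there is 1 library per treatment, no difference was tested. Intervals are 95% intervals for counting error only, and they do not cover differences between mice or libraries.

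Macrophages and dendritic cells both take up material and present peptides on MHC class II molecules, and monocytes that enter a wound can give rise to either. Dendritic cells depend on the growth factor receptor Flt3 and express the transcription factor Zbtb46. Type 1 dendritic cells use Irf8 and Batf3, and type 2 dendritic cells more often use Irf4. Macrophages depend on the receptor Csf1r, and many of them secrete the complement proteins of the C1q group.

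The genes chosen to mark R1 were each at their highest in R1 among the 9 clusters, when cells were pooled over libraries. They were read from the same cells that were clustered, so their levels describe the cluster and are no test of it. Ear2, a ribonuclease of the eosinophil-associated family (chr14:44102654-44103534 on GRCm38), was at 456 CPM in R1 against 85.3 CPM in other cells with UBM, a 5.34-fold ratio (4.90 to 5.82). With saline it was at 645 CPM in R1 against 42.5 CPM in other cells, a 15.2-fold ratio (11.4 to 20.4). In PCL R1 cells Ear2 had 1 UMI, or 9.13 CPM against 4.04 CPM in other cells, and the interval of that ratio ran from 0.0560 to 13.3. The high Ear2 level was thus measured in UBM and saline R1 cells and not in the 14 PCL cells. With UBM it was not particular to R1. The cluster R3 was at 369 CPM, with a UMI in 37.0% of its cells, and R2 and F1 were at 142 and 134 CPM. With saline the next cluster, F1, was at 96.8 CPM. Reads of Ear2 may be shared with close copies of the family, so its counts are uncertain in that respect.

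Tnip3 (chr6:65525313-65634040), which encodes a ubiquitin-binding inhibitor of NF-kB signalling, was at 544 CPM in R1 against 127 CPM in other cells with UBM. It was at 420 against 83.9 CPM with PCL and at 1235 against 142 CPM with saline, which made it high in R1 of every library. Tnip3 was not particular to R1, however. With UBM the 8 cells of F2 were at 600 CPM. With saline the 13 cells of RP1 were at 980 CPM and the 3 cells of F2 at 678 CPM. Clec4b1 (chr6:123049962-123071555), a C-type lectin gene, was at 231 against 25.8 CPM with UBM, 274 against 54.9 CPM with PCL and 420 against 93.7 CPM with saline. Batf3 (chr1:191097847-191108945), a transcription factor of dendritic and other leukocytes, was at 138 against 46.9 CPM, 73.1 against 14.0 CPM and 173 against 41.2 CPM in the same order of libraries. Ccnd2 (chr6:127125162-127152193), a D-type cyclin, was at 45.0 against 5.76 CPM with UBM, 329 against 12.8 CPM with PCL and 361 against 17.5 CPM with saline. Pooled over libraries, Clec4b1 was at 252 CPM in R1 and 149 CPM in the next cluster, F1. Batf3 was at 139 CPM in R1 and 86.6 CPM in R3, and Ccnd2 at 88.3 CPM in R1 and 28.8 CPM in F1.

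Cd209a and H2-DMb2 were carried by few of the cells. Cd209a (chr8:3743397-3748984), a lectin gene of monocyte-derived and type 2 dendritic cells, was at 61.5 CPM in R1 against 14.96 CPM in other cells with UBM and at 292 against 3.67 CPM with PCL. With saline it was at 496 CPM in R1, a 24.8-fold ratio to other cells (16.8 to 37.6). A Cd209a UMI was seen in 20 of 289 UBM R1 cells (6.92%), 2 of 14 PCL R1 cells and 12 of 46 saline R1 cells (26.1%), and 1 UBM cell gave 30.2% of the UBM counts. In the cluster RP3 it was seen in more of the UBM cells, 33 of 200 (16.5%). RP3 also had it in 8 of 92 PCL cells and 8 of 68 saline cells (11.8%). Pooled over libraries, Cd209a was at 115 CPM in R1 and 81.3 CPM in RP3. H2-DMb2 (chr17:34143307-34151555), a chain of the peptide loader H2-DM, was at 32.6 against 1.32 CPM with UBM. With saline it was at 208 CPM in R1, a 41.6-fold ratio to other cells (19.8 to 101). Its neighbour H2-DMb1 (chr17:34153072-34160230) was at 501 against 95.6 CPM with UBM, 1014 against 172 CPM with PCL and 1114 against 468 CPM with saline. These loader genes are close copies of each other, so the split of reads between them is uncertain.

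Free RNA in droplets can give UMIs to cells that do not express a gene, so the shares of cells with a UMI were compared within each library. With UBM a UMI was seen in 49.5% of R1 cells for Ear2, 80.6% for Tnip3, 6.92% for Cd209a and 16.3% for H2-DMb2, against 9.14%, 28.6%, 2.66% and 0.703% of other cells. With saline the shares were 69.6%, 91.3%, 26.1% and 37.0% in R1, against 6.44%, 26.8%, 4.75% and 2.71% in other cells. With every cell reduced at random to 2500 UMIs, which left out 11 UBM and 7 saline R1 cells and 151 UBM and 72 saline other cells as shallower, the UBM shares were 37.1%, 60.4%, 4.68% and 6.47% in R1, against 6.58%, 19.1%, 1.79% and 0.272% in other cells. The saline shares were then 61.5%, 82.1%, 20.5% and 28.2% in R1, against 6.73%, 21.5%, 2.69% and 0.897% in other cells. Cells outside R1 that do express these genes are part of this comparison. The cluster F2 had 50740 CPM of neutrophil genes. Its 8 UBM, 45 PCL and 3 saline cells were too few to measure free RNA in the UBM and saline libraries. It also had 23429 CPM of genes of a macrophage list, and a Tnip3 UMI in 4 of 8 UBM cells, so it was no clean background.

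**Figure D1:**
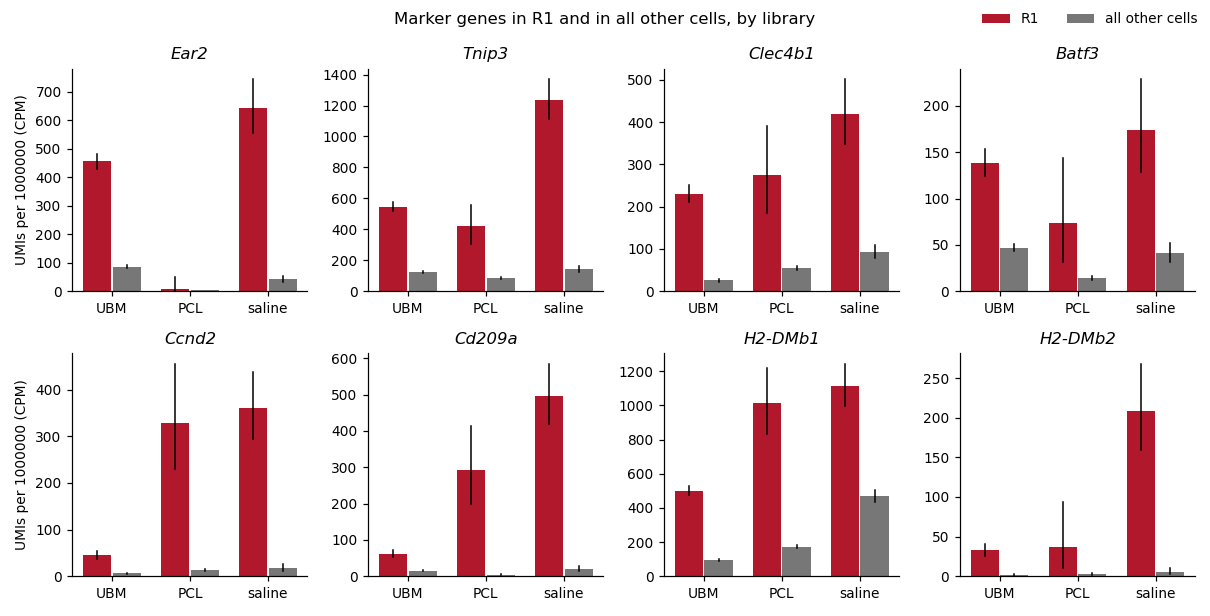
Level of the 8 marker genes in UMIs per 1000000 (y axis, linear), in R1 (red, left of each pair) and all other cells (grey) of each library; bars are summed counts over the total and lines are exact Poisson 95% intervals. Every R1 bar stands above its neighbour, but the PCL bar of Ear2 rests on 1 UMI.

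Beyond the markers, Ccr2, Il1b and Lsp1 were among the genes that stood highest in R1 against other cells, and Ccl8, Apoe and Cd163 among those that stood lowest. Among genes with at least 50 CPM on either side, 66 of 2431 (2.71%) were at least 2-fold higher in R1 with UBM and 99 (4.07%) at least 2-fold lower, after 10 CPM was added to both sides. With saline, 199 of 2808 (7.09%) were higher and 274 (9.76%) lower. The genes highest in R1 of both libraries included Ccr2, the receptor that brings monocytes into tissue, at 295 CPM in R1 against 39.9 CPM in other cells with UBM and at 878 against 288 CPM with saline. Il1b, the inflammatory cytokine interleukin-1 beta, was at 259 against 73.0 CPM with UBM and at 1991 against 561 CPM with saline. Neither gene was highest in R1 among the clusters pooled over libraries. Ccr2 was at 618 CPM in F1 and 360 CPM in R1, and Il1b at 3314 CPM in F2, 1086 CPM in F1 and 498 CPM in R1. As a list, cytokines and chemokines were divided, with 7 higher and 5 lower of 24 with UBM and 7 higher and 13 lower of 27 with saline, at a ratio of 1.5. At that ratio 8.94% of all genes were higher and 13% lower with UBM, and 21.2% higher and 28.3% lower with saline. Lsp1, a leukocyte actin-binding protein, was at 308 against 73.1 CPM and at 926 against 167 CPM. Areg, the growth factor amphiregulin, was at 57.8 against 10.2 CPM and at 156 against 7.50 CPM. Further genes picked by the same rule were Rras2, Napsa, Pilra, Olfm1, Unc119, S100a11 and Plbd1. In PCL, where the 14 R1 cells gave few counts, Pilra was the exception among these 7 genes, at 36.5 CPM in R1 against 72.7 CPM in other cells.

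The genes lowest in R1 of both libraries were led by Ccl8, a chemokine of tissue-resident macrophages, at 468 CPM in R1 against 14575 CPM in other cells with UBM and at 45.1 against 1597 CPM with saline. Apoe, the lipid carrier apolipoprotein E, was at 1678 against 10942 CPM with UBM and at 3722 against 24420 CPM with saline, and 1 cell gave 37.4% of the saline R1 counts. Cd163, the haemoglobin scavenger receptor, was at 17.7 against 394 CPM with UBM and at 10.4 against 90.0 CPM with saline. Gas6, a ligand of receptors for apoptotic cell uptake, was at 18.6 against 246 CPM and at 17.3 against 258 CPM. The rest of this group was Ms4a7, Cbr2, Ccl12, Stab1, Sepp1 and Ednrb. Each of the 10 genes had a lower level in R1 than in other cells with PCL too, although Cd163 and Stab1 had 1 UMI there and Gas6 had 0.

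The genes of antigen presentation on MHC class II stood higher in R1 than in other cells, more so with UBM than with saline. At a ratio of at least 1.5 with nothing added, and at least 10 CPM on either side, 8 of 12 measured members were higher in R1 with UBM and 1 was lower, where 8.94% of 6925 genes were higher and 13% lower. With saline 8 of 13 were higher and 1 lower, where 21.2% of 7564 genes were higher and 28.3% lower. The R1 markers H2-DMb1 and H2-DMb2 were chosen as high in R1, so any place of theirs among the higher members is no result. The median log2 ratio of the members was 1.89 with UBM and 0.88 with saline, against -0.01 and -0.02 over all genes. H2-Ab1, the beta chain of the main MHC class II molecule, was at 4207 CPM in R1 against 869 CPM in other cells with UBM, a 4.84-fold ratio (4.71 to 4.97). With PCL it was at 6868 against 2474 CPM, and with saline at 10355 against 4997 CPM, a 2.07-fold ratio (1.99 to 2.16). H2-Aa, its alpha chain, was at 4077 against 876 CPM with UBM and at 9453 against 5025 CPM with saline. Cd74, the invariant chain that escorts these molecules, was at 13000 against 3047 CPM with UBM and at 25881 against 14299 CPM with saline. Ciita, the activator of the whole gene group, was at 22.7 against 3.54 CPM with UBM (6.42-fold, 4.23 to 9.80) and at 27.8 against 21.2 CPM with saline (1.31-fold, 0.522 to 2.87). Ctss, a protease that trims the invariant chain, was at 3741 against 3668 CPM with UBM and at 2751 against 3459 CPM with saline. Lgmn, another endosomal protease, was lower, at 723 against 1762 CPM with UBM and at 461 against 1565 CPM with saline.

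Other clusters of the same library had class II levels near those of R1. With UBM the listed genes summed to 30640 CPM in R1, 30323 CPM in the 43 cells of F1 and 29154 CPM in the 173 cells of R3, and to 5973 to 16746 CPM in the other clusters. With saline they summed to 58856 CPM in R1, 53448 CPM in the 64 cells of F1 and 56201 CPM in the 37 cells of R3, with 9509 to 27300 CPM in FP1, RP1, RP2 and RP3 and 63200 CPM in the 3 cells of F2. H2-Ab1 with UBM stood at 4207 CPM in R1, 4060 CPM in F1 and 3121 CPM in R3. The loader gene H2-DMb2 had another order, at 32.6 CPM in R1 and at most 7.24 CPM in any other cluster with UBM, and at 208 CPM in R1 and at most 8.54 CPM in any other cluster with saline.

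The promoters of class II genes are shown because they carry short conserved boxes, named X and Y, through which Ciita and its partners act. In the windows examined, 4 genes hold the Y-box core, and all 4 were higher in R1. Of these, H2-DMb1 and H2-DMb2 are R1 markers chosen as high in R1, so their higher level is no result. H2-Eb1, another class II beta chain, was at 3286 CPM in R1 against 628 CPM in other cells with UBM and at 6997 against 3804 CPM with saline. Sequences run from 250 bases before to 50 bases after the start annotated by RefSeq on GRCm38.p6 and are written along the gene's own strand, with the Y-box core TGATTGG and the X-box core AACNGATG in capitals. Of 7 genes looked for, 5 had such a window. Both strands were searched, and no match of one motif overlapped the other.
H2-Aa, chr17:34287774-34288073, minus strand: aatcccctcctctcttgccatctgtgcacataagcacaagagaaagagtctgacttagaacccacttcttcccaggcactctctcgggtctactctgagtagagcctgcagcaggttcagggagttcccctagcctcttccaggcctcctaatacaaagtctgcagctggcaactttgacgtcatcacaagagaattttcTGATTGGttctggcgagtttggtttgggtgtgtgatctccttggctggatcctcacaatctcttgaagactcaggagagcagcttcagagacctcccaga
H2-Eb1, chr17:34305617-34305916, plus strand: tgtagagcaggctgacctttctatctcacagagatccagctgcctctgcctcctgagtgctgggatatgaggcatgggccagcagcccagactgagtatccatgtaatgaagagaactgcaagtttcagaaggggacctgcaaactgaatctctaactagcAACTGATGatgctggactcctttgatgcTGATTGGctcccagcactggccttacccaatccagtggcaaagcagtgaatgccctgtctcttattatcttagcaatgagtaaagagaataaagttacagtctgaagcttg
H2-DMb1, chr17:34152941-34153240, plus strand: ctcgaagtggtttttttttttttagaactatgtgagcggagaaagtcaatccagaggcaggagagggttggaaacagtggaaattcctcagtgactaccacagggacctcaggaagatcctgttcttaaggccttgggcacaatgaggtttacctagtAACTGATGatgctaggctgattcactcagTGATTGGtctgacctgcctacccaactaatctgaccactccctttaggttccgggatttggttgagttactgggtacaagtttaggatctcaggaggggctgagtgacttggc
H2-DMb2, chr17:34144999-34145298, plus strand: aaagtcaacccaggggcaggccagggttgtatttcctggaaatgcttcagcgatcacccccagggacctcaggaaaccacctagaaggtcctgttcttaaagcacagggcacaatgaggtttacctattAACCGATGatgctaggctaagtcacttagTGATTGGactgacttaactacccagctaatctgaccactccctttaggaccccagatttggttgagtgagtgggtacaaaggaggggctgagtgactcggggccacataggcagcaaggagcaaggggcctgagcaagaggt
The Y-box core lay on the gene's strand 50 bases before the start in H2-Aa, 61 in H2-Eb1, 63 in H2-DMb1 and 92 in H2-DMb2. The X-box core lay 89, 92 and 121 bases before the start in H2-Eb1, H2-DMb1 and H2-DMb2, and the H2-Aa window held no match to these letters. Of 32851 such windows over all genes, 7.82% held the Y-box core and 2.32% the X-box core. Neither motif was found in the 2 windows of H2-DMa, the partner chain of the loader. Its level was 546 CPM in R1 against 143 CPM in other cells with UBM and 1124 against 423 CPM with saline. A match of letters describes the window and shows no binding.

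Dendritic cell genes gave a divided picture. Of the conventional dendritic cell list, 20 of 22 genes are in the table, and 8 of these passed 10 CPM on either side with UBM, of which 5 were higher in R1 and 1 lower. With saline 13 passed, of which 9 were higher and 2 lower. Over all genes, 8.94% were higher and 13% lower with UBM, and 21.2% higher and 28.3% lower with saline. The members that were higher in both libraries were signalling and surface genes. Traf1, an adapter of tumour necrosis factor receptors, was at 28.5 CPM in R1 against 11.6 CPM in other cells with UBM and at 170 against 31.9 CPM with saline. Gpr132, a lipid- and acid-sensing receptor, was at 32.6 against 19.1 CPM and at 156 against 56.9 CPM. Itgb7, an integrin chain, was at 30.95 against 18.5 CPM with UBM and at 27.8 against 6.88 CPM with saline, where R1 had 8 UMIs.

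The genes that define the lineage had few counts in R1, although pooled over libraries R1 had the highest level of each among the 9 clusters. Flt3 was at 6.38 CPM in R1 and at most 0.855 CPM elsewhere, Clec9a at 3.90 and at most 0.285 CPM, Zbtb46 at 3.54 and at most 1.39 CPM, and Ccr7 at 7.80 and at most 3.08 CPM. Flt3 had 17 UMIs in UBM R1 cells, 1 in PCL and 0 in saline. Zbtb46 had 8 UMIs in UBM R1 cells, 1 in PCL and 1 in saline. Clec9a, a receptor of type 1 dendritic cells, had 11 UMIs with UBM and 0 with PCL and saline. Ccr7, the receptor that takes mature dendritic cells to lymph nodes, had 0 UMIs with UBM and saline, and its 22 UMIs in PCL R1 came from 1 cell. Summed, the conventional dendritic list reached 275 CPM in R1, 308 CPM in F1 and 214 CPM in R3 with UBM, and 642, 367 and 451 CPM in the same clusters with saline.

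The smaller dendritic lists hold few measured genes, and their counts stand beside the 8.94% of all genes higher and 13% lower in R1 with UBM, and 21.2% and 28.3% with saline. The type 1 list includes the R1 marker Batf3 and the type 2 list the R1 marker Cd209a. These markers were chosen as high in R1, so their place among the higher members is no result. Among type 1 dendritic cell genes, 4 of 7 measured members were higher and none lower in R1 with UBM, and 3 were higher and 3 lower with saline. Naaa, a lipid amidase, was at 201 CPM in R1 against 114 CPM in other cells with UBM and at 416 against 124 CPM with saline. Cadm1, an adhesion molecule, had opposite directions, at 43.3 against 11.1 CPM with UBM and with 1 UMI in saline R1 cells. Irf8 was at 137 CPM in R1 against 147 CPM in other cells with UBM and at 62.4 against 206 CPM with saline. Among type 2 genes, 3 of 6 were higher and 1 lower with UBM, and 3 were higher and 3 lower with saline. Irf4 was at 11.6 against 3.86 CPM with UBM, and with saline at 52.0 CPM in R1, a 10.4-fold ratio to other cells (4.14 to 28.3). Mgl2, a galactose-binding lectin of dendritic cells and alternatively activated macrophages, was at 549 against 338 CPM with UBM and at 506 against 161 CPM with saline. Mature dendritic cell genes gave 2 higher and none lower of 6 with UBM, and 4 higher and none lower of 7 with saline, led by Socs2, a cytokine signalling inhibitor, at 51.2 against 13.2 CPM and 38.2 against 5.62 CPM. Plasmacytoid dendritic cell genes were not higher, with 2 of 4 lower with UBM and 4 of 4 with saline.

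Macrophage genes were lower in R1 than in other cells but remained among its abundant RNAs. Of the 22 genes of the macrophage core, none was 1.5-fold higher in R1 with either treatment, while 13 were lower with UBM and 20 with saline. Over all genes, 8.94% were higher and 13% lower with UBM, and 21.2% higher and 28.3% lower with saline. The median log2 ratio was -0.68 with UBM and -1.29 with saline. Summed, the core still reached 17792 CPM in R1 against 25527 CPM in other cells with UBM, and 21663 against 41423 CPM with saline. The dendritic core reached 275 against 173 CPM and 642 against 314 CPM. Lyz2, the myeloid lysozyme, was at 6395 CPM in R1 against 6071 CPM in other cells with UBM and at 14816 against 19653 CPM with saline. C1qb was at 2517 against 3652 CPM and at 1759 against 4582 CPM. Csf1r was at 255 against 403 CPM with UBM and at 323 against 577 CPM with saline. Adgre1, the F4/80 antigen, was at 253 against 465 CPM and at 215 against 449 CPM.

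Genes of resident macrophages were lower still, 12 of 13 with UBM and 14 of 14 with saline, with median log2 ratios of -1.96 and -2.85 and none higher. Classical monocyte genes were mostly higher, 7 of 9 with UBM, where 1 was lower, and 5 of 9 with saline, where 2 were lower. Beside these lists, 8.94% of all genes were higher and 13% lower with UBM, and 21.2% higher and 28.3% lower with saline. Pooled over libraries, however, the list summed to 2749 CPM in R1 and to more in F1 (3937 CPM), R2 (3629 CPM), FP1 (3190 CPM) and F2 (3097 CPM). Besides Ccr2, Fn1, which encodes fibronectin, was at 1788 CPM in R1 against 981 CPM in other cells with UBM and at 1235 against 374 CPM with saline. Ly6c2, a surface marker of inflammatory monocytes, was low throughout, at 13.6 against 2.06 CPM with UBM and at 20.8 against 13.1 CPM with saline. Retnla, a secreted product of alternatively activated macrophages, was at 10116 against 6603 CPM with UBM, 722 against 13.3 CPM with PCL and 7063 against 1618 CPM with saline. All 79 Retnla UMIs of PCL R1 came from 1 cell. The alternative activation list to which Retnla belongs had 4 higher and 10 lower of 17 in R1 with UBM (median log2 ratio -0.89) and 4 higher and 8 lower of 14 with saline (-0.59). These counts stand beside the same shares over all genes.

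**Figure D2:**
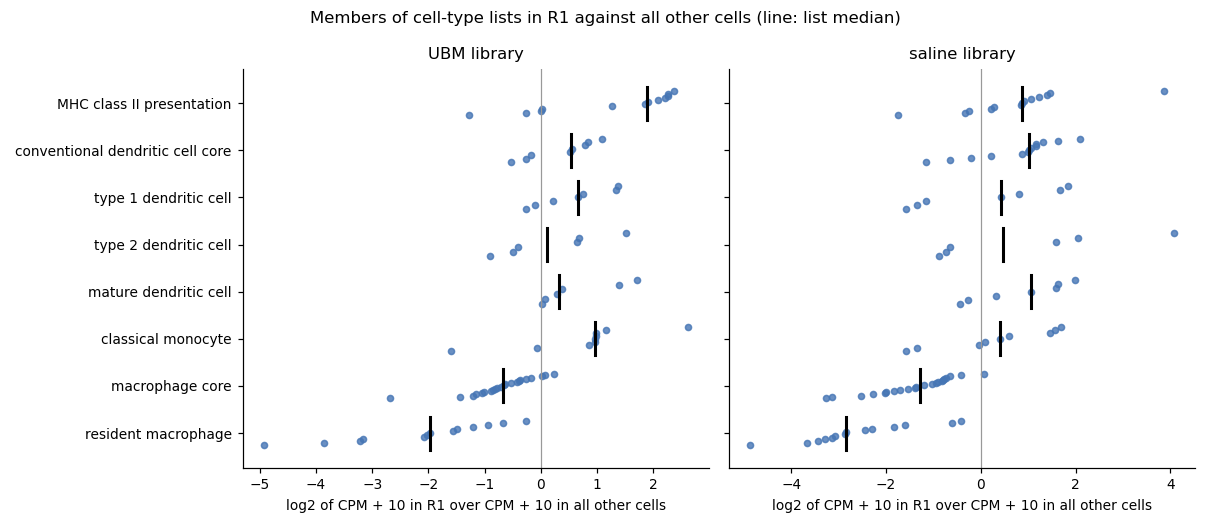
Log2 ratio of R1 over all other cells (x axis, 10 CPM added) for each measured member of 8 gene lists, in the UBM library (left) and the saline library (right); points are genes and black lines are list medians. Most MHC class II genes lie to the right, with medians of 1.89 and 0.88, and resident macrophage genes to the left, with medians of -1.96 and -2.85.

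C1q and class II transcripts were also counted cell by cell. At least 1 UMI of C1qa, C1qb or C1qc together with at least 1 of H2-Aa, H2-Ab1, H2-Eb1 or Cd74 was seen in 269 of 289 UBM R1 cells (93.1%), 14 of 14 PCL R1 cells and 39 of 46 saline R1 cells (84.8%). Among other cells the shares were 73.3% with UBM, 97.6% with PCL and 90.8% with saline. In the neutrophil-gene cluster F2 it was 49 of 56 cells (87.5%, 75.9 to 94.8%), at a median of 4345.5 UMIs per cell against 7374 in R1. F2 also held macrophage core genes, so its share does not separate free RNA from expression. A UMI of each kind in a cell is therefore not read as expression of both. In the median R1 cell the 4 class II genes took 2.11% of UMIs with UBM, 2.76% with PCL and 4.33% with saline, against 0.0358%, 0.331% and 1.54% in the median other cell. C1q took 0.402% with UBM, 0.0978% with PCL and 0.198% with saline, against 0.678%, 0.294% and 1.22%. The 4 class II genes were at 0 in 9 UBM R1 cells and in no R1 cell of the other libraries.

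**Figure D3:**
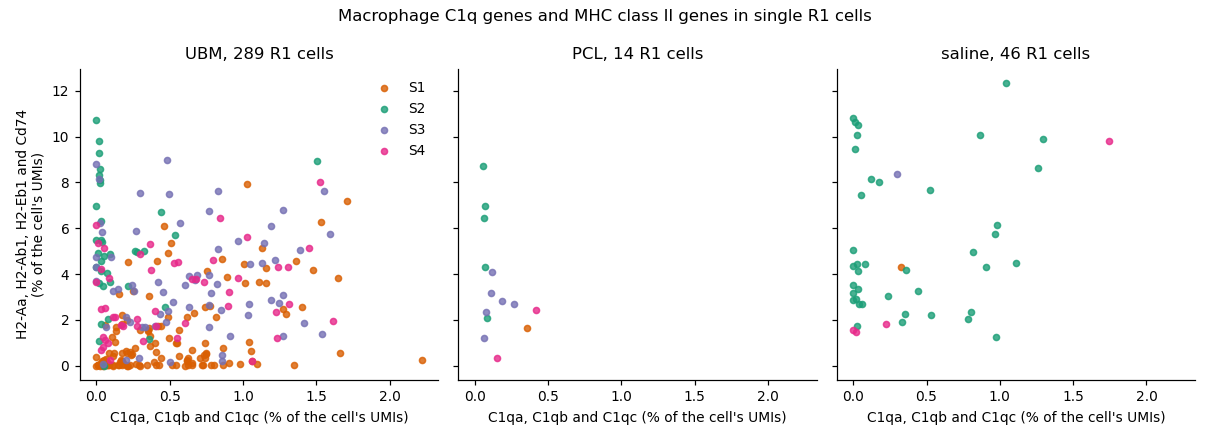
Share of each R1 cell's UMIs taken by C1qa, C1qb and C1qc (x axis, percent) and by H2-Aa, H2-Ab1, H2-Eb1 and Cd74 (y axis, percent) in the 3 libraries; points are cells, coloured by the sub-clusters S1 to S4. Cells with up to 10.7% class II UMIs and almost no C1q lie along the left edge with UBM, while many S1 cells lie near 0 on the y axis.

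Pooled over libraries, R1 expression over 3481 genes had its highest correlation with RP2 (Pearson r of 0.929 across genes, which share libraries and are not replicates). FP1 (0.922), F1 (0.891) and R3 (0.885) followed. The pooled values also carry the mix of libraries. UBM gave 289 of 349 R1 cells and 640 of 736 RP2 cells, while PCL gave 1036 of 1207 FP1 cells. Against RP2 with UBM, 79 of 2389 genes (3.31%) were at least 2-fold higher in R1 and 61 (2.55%) lower. Against FP1 with UBM, 60 of 2550 (2.35%) were higher and 53 (2.08%) lower. With saline, where RP2 had 38 cells and FP1 had 72, the shares were 14.9% higher and 12.4% lower against RP2, and 8.33% higher and 9.66% lower against FP1. Within both libraries the shares were thus smaller against FP1 than against RP2, the reverse of the pooled order. With UBM, Ear2 was 47.8-fold above RP2 (34.5 to 68.3) and 7.54-fold above FP1 (5.64 to 10.3), and H2-Ab1 was 19.01-fold above RP2 (17.7 to 20.4) and 6.88-fold above FP1 (6.28 to 7.55). Tnip3 was nearer, at 2.49-fold above RP2 (2.29 to 2.72) and 3.45-fold above FP1 (2.87 to 4.18). Lyz2 had opposite directions in the 2 libraries, at 6395 CPM in R1 against 5171 CPM in RP2 with UBM and at 14816 against 30681 CPM with saline.

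Markers of cells outside the macrophage and dendritic lineages were low in R1 compared with its macrophage genes, but those of NK cells and type 2 innate lymphoid cells stood above the level in other cells. NK cell genes summed to 303 CPM in R1 against 32.8 CPM in other cells with UBM, and to 59.0 against 41.9 CPM with saline. Among the UBM R1 cells, 7 held 479 of the 481 UMIs of Gzma, Nkg7, Klrb1c and Klre1, with 6 to 169 such UMIs each. These 7 cells had a median of 1 UMI of the 4 class II genes, 2 of C1q and 1 of Lyz2. Type 2 innate lymphoid cell genes summed to 160 CPM in R1 against 75.9 CPM in other cells with UBM and to 316 against 68.1 CPM with saline, and their part in the R1 levels was not tested. This list includes Areg, named above among the genes highest in R1. Pooled over libraries, Areg was highest in R1, at 79.8 CPM, but its fellow member Il7r was highest in FP1, at 95.2 CPM against 63.8 CPM in R1. Muscle fibre genes were lower in R1, at 13.6 against 54.4 CPM with UBM and 59.0 against 826 CPM with saline. Neutrophil genes were at 59.8 against 122 CPM with UBM and 52.0 against 285 CPM with saline. B cell, eosinophil, endothelial, satellite and erythroid cell genes each summed to at most 12.0 CPM in R1 of either library, fibroblast genes to 33.8 CPM and T cell genes to 71.0 CPM. Several of these sums rest on few genes, since the counts held 2 of 8 B cell, 2 of 5 eosinophil, 1 of 5 satellite, 3 of 5 erythroid and 6 of 12 T cell genes. The counts also held only 7 of 11 NK cell genes and 4 of 7 type 2 innate lymphoid cell genes. Mast cells and basophils could not be assessed, because the counts held 0 of their 7 genes. Without the 7 cells, 66 genes were at least 2-fold higher and 96 lower in R1 with UBM.

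R1 was not uniform. Clustering its 349 cells by themselves gave 4 sub-clusters, named S1 to S4 by size, whose leading genes are given as descriptions. S1 (140 cells) was led by Gpnmb, a glycoprotein of lipid-laden and tissue-remodelling macrophages, at 744 CPM against 10.9 CPM in the remaining R1 cells. Its other leading genes were Spp1 (osteopontin) at 3039 against 116 CPM, the collagenase Mmp13 at 271 against 9.52 CPM and the cathepsins Ctsk and Ctsl. The elastase Mmp12 was at 5634 against 552 CPM. S1 had the lowest class II level of the 4, with H2-Ab1 at 1874 against 7751 CPM, and Ear2 at 86.6 against 799 CPM. Tnip3 was close to the rest, at 548 against 667 CPM.

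S2 (80 cells) held 20 of the 34 R1 cells with a Cd209a UMI and 244 of their 324 UMIs, at 454 CPM against 35.03 CPM in the remaining R1 cells. Cd24a, a surface protein found on dendritic cells, was at 253 against 19.7 CPM in 32 cells. Of its other leading genes, Ccl5 came from 3 cells and Ccl22 from 5, with 93.1% of Ccl22 counts in 1 cell, and Ifi205 from 13. S2 had the highest class II level, with H2-Ab1 at 10706 against 3582 CPM and a list sum of 59491 CPM, against 19841 CPM in S1. Its summed dendritic core was 819 CPM and its macrophage core 14146 CPM, against 181 and 20361 CPM in S1. S2 nevertheless had Lyz2 at 8846 CPM and C1qb in 55 of 80 cells.

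S3 (75 cells) was led by Ccl24, an eosinophil-attracting chemokine of alternatively activated macrophages, at 4895 against 119 CPM. Chil3, a chitinase-like protein, was at 723 against 39.1 CPM, with 40.2% of counts in 1 cell. Rnase2a, Ccl12 and Plac8 followed. Ear2 reached 1155 CPM and Retnla 25209 CPM in S3, the highest of the 4 sub-clusters. S4 (54 cells) was led by genes of dividing cells, Ube2c at 122 against 1.70 CPM, Top2a at 137 against 8.92 CPM, Hist1h2ap, 2810417H13Rik and Birc5. Ube2c was seen in 15 and Top2a in 16 of its cells.

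**Figure D4:**
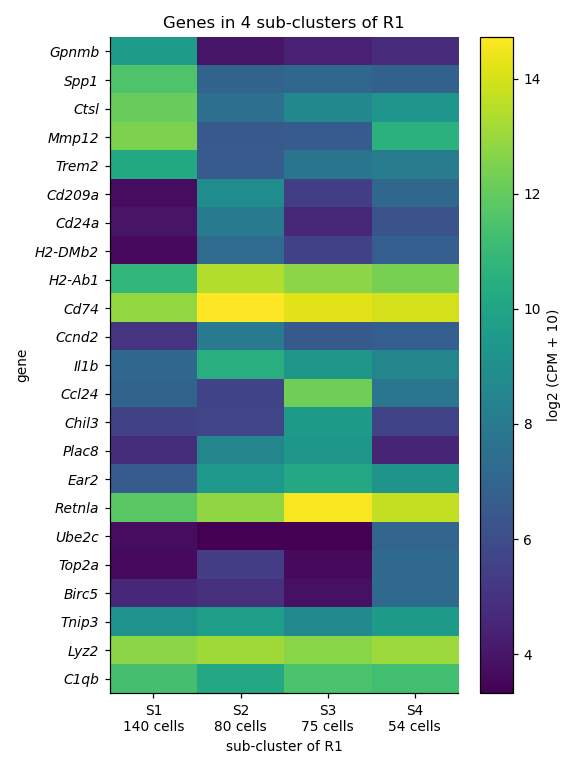
Level of 23 genes (rows, colour, log2 of CPM + 10) in the 4 sub-clusters of R1 (columns, with their numbers of cells); each square is the sum over the cells of a sub-cluster. Gpnmb, Spp1 and Mmp12 are bright in S1, Cd209a and H2-Ab1 in S2, Ccl24 and Retnla in S3, and Ube2c and Top2a in S4.

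The libraries filled these sub-clusters unevenly. S1 held 138 of 289 UBM R1 cells (47.8%, 41.9 to 53.7%), 1 of 14 PCL R1 cells and 1 of 46 saline R1 cells (2.17%, 0.0550 to 11.5%). S2 held 12.1% of UBM (8.58 to 16.4%), 35.7% of PCL (12.8 to 64.9%) and 87.0% of saline R1 cells (73.7 to 95.1%). S3 held 23.5% of UBM and 2.17% of saline cells, and S4 16.6% of UBM and 8.70% of saline cells. Since the genes used to cluster differ between the treatments, R1 was also clustered without the 405 genes that differed at least 2-fold between UBM and saline R1 cells. The sub-cluster with the most Cd209a then held 15.6% of UBM (11.6 to 20.3%), 64.3% of PCL (35.1 to 87.2%) and 56.5% of saline R1 cells (41.1 to 71.1%). The sub-cluster led by Gzma, Spp1 and Gpnmb in that run held 37.7% of UBM (32.1 to 43.6%) and 4.35% of saline cells (0.531 to 14.8%). The Cd209a sub-clusters of the 2 runs had 80 cells each and shared 56, and the S1 sub-clusters, with 140 and 111 cells, shared 108.

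At a finer resolution of 1.0, which gave 9 sub-clusters, the smallest held 9 UBM cells, all from S2, and was type 1 dendritic cell-like by its markers. Gcsam, Irf8, Wdfy4 and Clec9a were among its 10 leading genes. The group was made by clustering on expression in these same cells, so the levels given here describe it and are no test of its name. Irf8 was at 1870 CPM in these cells against 80.8 CPM in the remaining R1 cells, a 23.2-fold ratio (18.6 to 28.8). Flt3 had 13 of the 18 Flt3 UMIs of R1 there, and all 11 Clec9a and all 17 Gcsam UMIs came from them. H2-Ab1 was at 14197 against 4691 CPM. Macrophage genes were low, with 12 C1q UMIs in all and the macrophage core at 1311 against 18593 CPM. Lyz2 was at 724 against 7621 CPM. These cells had no Cd209a UMI, and Tnip3 was at 81.9 against 624 CPM.

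Cd209a was itself concentrated in few cells. Of the 349 R1 cells, 22 had 3 or more Cd209a UMIs (11 UBM, 2 PCL and 9 saline) and held 307 of the 324 UMIs, and 17 of them lay in S2. Cells were chosen here by Cd209a, so its level is no result. Their H2-Ab1 was at 10442 CPM against 4622 CPM in the remaining R1 cells (2.26-fold, 2.14 to 2.38) and their Mgl2 at 1567 against 508 CPM (3.09-fold, 2.68 to 3.54). C1q summed to 1143 against 5228 CPM, and Lyz2 was at 4062 against 7636 CPM. Flt3 had 4 UMIs in 3 of these cells, and Csf1r was at 183 against 265 CPM (0.689-fold, 0.455 to 1.00). In PCL, 1 R1 cell held all 168 UMIs of Ccr7, Fscn1 and Ccl22 in that library's R1 cells.

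R1 cells also differed with treatment. Between UBM and saline R1 cells, 173 of 2657 genes (6.51%) were at least 2-fold higher with UBM and 232 (8.73%) lower. This split depended on scaling, with 238 higher and 171 lower under the trimmed mean of M values and 231 higher and 177 lower under the median of ratios. The median log2 ratio over all genes was -0.10 by total UMIs, 0.07 by trimmed mean and 0.06 by median of ratios. Among all other cells 105 of 2623 genes (4%) were higher and 168 (6.4%) lower.

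The genes furthest above saline R1 cells in UBM R1 cells included Arg1, Mmp12, Gpnmb, Ctsl and Spp1. Arg1, which breaks down arginine, was at 1583 CPM in UBM R1 cells against 10.4 CPM in saline R1 cells, where it had 3 UMIs (152-fold, 52.0 to 738). It was at 3250 against 37.5 CPM in other cells, 86.7-fold. Mmp12 was at 3443 CPM in UBM R1 cells against 93.7 CPM in saline R1 cells (36.8-fold, 25.2 to 55.8) and at 680 against 157 CPM in other cells (4.34-fold). Gpnmb was at 411 against 13.9 CPM in R1 (29.6-fold, 11.5 to 109) and at 374 against 405 CPM in other cells. Ctsl was at 2547 against 83.3 CPM, Spp1 at 1717 against 65.9 CPM, Ccl24 at 1045 against 13.9 CPM and Igf1, an insulin-like growth factor, at 453 against 13.9 CPM in R1. Mmp13 and Rnf128 had no UMI in saline R1 cells and were at least 15.03-fold and 13.2-fold higher with UBM, taking 3 counts over the group as the floor. Gzma was at least 14.2-fold higher on the same floor, and all of it lay in 6 of the 7 cells with NK cell genes.

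The genes furthest below saline R1 cells in UBM R1 cells included Il1b, Cx3cr1, Nr4a1 and the R1 markers Cd209a and Ccnd2. Il1b was at 259 CPM in UBM R1 cells against 1991 CPM in saline R1 cells (7.70-fold lower, 6.86 to 8.63), and at 73.0 against 561 CPM in other cells. Cd209a was at 61.5 against 496 CPM in R1 (8.07-fold lower, 6.37 to 10.2), and 1.34-fold lower in other cells (0.888 to 1.95). Ccnd2 was at 45.0 against 361 CPM (8.02-fold lower, 6.07 to 10.6). Cx3cr1, the fractalkine receptor, was at 7.43 against 101 CPM in R1 and at 7.98 against 192 CPM in other cells. Nr4a1, an immediate-early nuclear receptor, was at 106 against 666 CPM (6.30-fold lower, 5.202 to 7.63). Nr4a3, Rasgef1b, Samsn1, Upb1 and Spink2 completed the lowest 10.

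By list, at a ratio of 1.5, 21.8% of 7390 genes were higher with UBM in R1 and 26.9% lower, against 10.1% and 18.5% of 7121 genes in other cells. Of glycolysis and hypoxia genes, 18 of 19 were higher in R1 and 1 lower (median log2 ratio 1.40), and 18 of 20 were higher in other cells (1.66). Pgk1, a glycolytic kinase, was at 202 CPM with UBM against 20.8 CPM with saline in R1. Of MHC class II genes, 1 was higher and 9 of 13 lower in R1 (median -0.99), and none was higher and 8 of 11 lower in other cells (-1.50). H2-Ab1 was at 4207 CPM with UBM against 10355 CPM with saline in R1 (2.46-fold lower, 2.36 to 2.56) and at 869 against 4997 CPM in other cells (5.75-fold lower). Alternative activation genes gave 9 higher and 1 of 17 lower in R1 (median 0.44), and 12 higher and 1 of 17 lower in other cells (1.36). Cytokine and chemokine genes gave 7 higher and 9 of 25 lower in R1 (-0.09), genes of NF-kB feedback 1 higher and 7 of 13 lower (-0.49), and genes of the handling stress list 2 higher and 5 of 16 lower (-0.42). Of the 8 R1 markers, none was higher and 6 were lower. Conventional dendritic core genes gave none higher and 8 of 12 lower in R1, and macrophage core genes 8 higher and 3 of 21 lower. Interferon-response genes gave 8 higher and 3 of 17 lower in R1 (median 0.33), while in other cells none was higher and 18 of 22 were lower (-1.20). Muscle fibre genes were at 13.6 CPM with UBM against 59.0 CPM with saline in R1, and at 54.4 against 826 CPM in other cells, and their part in these differences was not tested.

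The class II difference was much smaller within the Cd209a sub-clusters. Cells were grouped there by expression that could include class II genes, so similar levels inside may be set by the grouping. Leaving out the 405 genes took out H2-Ab1 but not Cd74, which differed by just under 2-fold. S2 with UBM also held the 9 type 1 dendritic cell-like cells, with H2-Ab1 at 14197 CPM. Inside S2, with 35 UBM and 40 saline cells, H2-Ab1 was at 10642 CPM with UBM against 10722 CPM with saline (0.992-fold, 0.940 to 1.05) and Cd74 at 27141 against 26510 CPM (1.02-fold, 0.989 to 1.06). Inside the Cd209a sub-cluster found without the 405 genes, with 45 UBM and 26 saline cells, H2-Ab1 was at 8707 against 10071 CPM (0.865-fold, 0.814 to 0.918) and Cd74 at 23612 against 24615 CPM (0.959-fold, 0.924 to 0.996). There 2 of 14 class II genes were 1.5-fold higher and 1 lower, where 25.8% of all genes measured there were higher and 31.2% lower. Other differences were present in that sub-cluster too. Il1b was at 453 against 2148 CPM (4.74-fold lower, 3.91 to 5.77), and Arg1 at 636 CPM with UBM against 0 UMIs with saline (at least 36.1-fold higher). Of glycolysis and hypoxia genes, 16 of 19 were higher with UBM and 1 lower (median log2 ratio 0.95), but inside S2 7 of 19 were higher and 2 lower (0.48), where 26.5% of all genes measured there were higher and 27.8% lower. The dendritic core turned round inside both sub-clusters, and the macrophage core inside S2 only. Dendritic core genes had 12 higher and 3 of 19 lower in S2 (median 1.14) and 12 higher and 4 of 19 lower in the other Cd209a sub-cluster (0.66). Macrophage core genes had 3 higher and 9 of 20 lower in S2 (-0.42). In the other they had 4 higher and 5 of 21 lower (-0.16), with no clear direction beside the 25.8% and 31.2% of all genes there. Irf8 was at 492 against 47.0 CPM (10.5-fold, 5.197 to 24.7), and the 9 type 1 dendritic cell-like cells were all UBM cells. Mmp12 depended on the grouping: it was at 1084 against 11.7 CPM (92.3-fold, 25.4 to 765) in this sub-cluster, but at 70.5 against 87.2 CPM (0.808-fold, 0.403 to 1.59) inside S2.

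**Figure D5:**
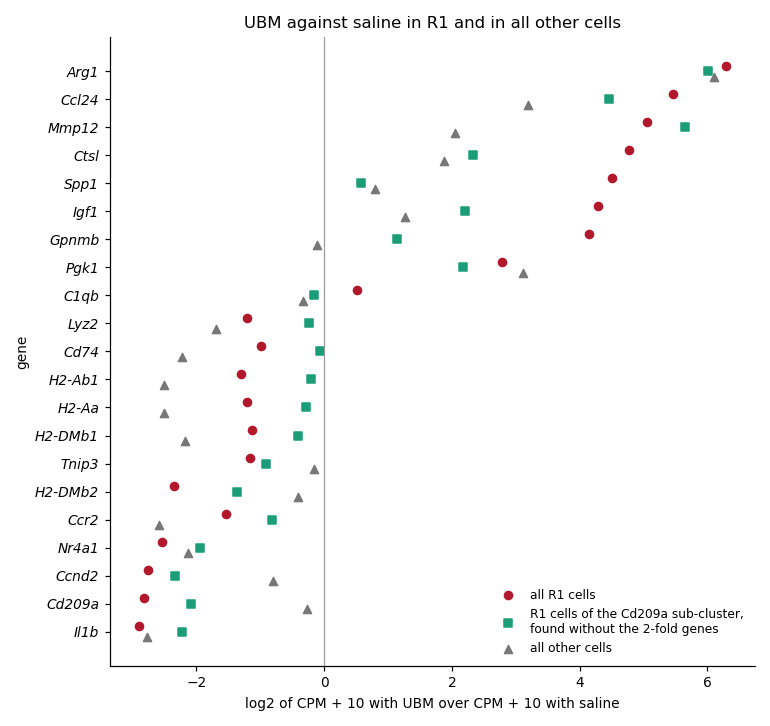
Log2 ratio of UBM over saline (x axis, 10 CPM added) for 21 genes in all R1 cells (red circles), in R1 cells of the Cd209a sub-cluster found without the 2-fold genes (green squares) and in all other cells (grey triangles). H2-Ab1 and Cd74 lie near 0 in the green squares, at -0.21 and -0.06, and at -1.30 and -0.99 in all R1 cells.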

How the data were processed

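The authors deposited a table of raw counts, UMIs per gene and cell, for 13242 genes and 4374 cells, and a table of each cell's condition and cluster. Per the labels, libraries were made with 10x 3' v2 chemistry. The submitters' processing notes name Cell Ranger, with no version, and Seurat 2, and give no role for either. They name the build hg38, while the gene symbols follow mouse naming. GENCODE on GRCm38, the source of the positions, held 12831 of them (96.9%). Condition names were matched to treatments by meaning (extracellular matrix as UBM, synthetic as PCL, phosphate-buffered saline as saline).

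Counts were summed over the cells of a group and expressed as CPM. With 1 library per treatment no test or p-value was computed. Ratios of single genes have nothing added and an exact conditional binomial interval, shares have exact Clopper-Pearson intervals, and log2 ratios have 10 CPM added. Only genes with at least 50 CPM on either side (10 CPM for lists) were counted. Named genes were the 15 highest and 10 lowest in both libraries, the 10 highest and lowest between UBM and saline, up to 3 members each way of 36 lists, 5 leading genes per sub-cluster, and a fixed set. The 22 cells with Cd209a, the 7 with NK cell genes and the 9-cell group were singled out after their values were seen. The members and lists were chosen with earlier results of these data known. R1 cells were sub-clustered with scanpy 1.11.5 (1000 variable genes, 15 components, 15 neighbours, Leiden resolution 0.5). Doublets were not removed. A doublet caller marked 1 UBM, 9 PCL and 7 saline cells, of which 1 was in R1. It marked too few UBM cells to be relied on. Cells above 10% mitochondrial UMIs were kept, 4 of them in R1. The summing and ratio steps were tested on simulated data. Trimmed means came from edgeR 4.0.16 in R 4.3.3, used for scaling only. Some single-gene results are not reported here.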

Additional observations from a re-analysis of the deposited data

Results flagged for a closer look

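Rtp4, an interferon-induced chaperone of receptors, was flagged because UBM and saline differed in opposite directions in R1 and in all other cells. Its log2 ratio of UBM over saline was 1.49 in R1, at 56.9 CPM with UBM against 13.9 CPM with saline (4.10-fold, 1.57 to 15.3). In all other cells the log2 ratio was -1.27, at 47.8 CPM with UBM against 129 CPM with saline (2.71-fold lower, 2.30 to 3.18). The saline value in R1 rests on 4 UMIs, and the difference between R1 and the other cells was not tested.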

How the results depend on the processing

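Of 195 counts and shares that answer a comparison, 173 stayed within 1.5 times their value, or within their interval, under the alternatives. With no minimum CPM, 128 genes were higher in R1 with UBM, 356 were higher and 687 lower with saline, and 447 were higher and 392 lower between UBM and saline R1 cells, which turned the split of 173 higher and 232 lower, as did the trimmed mean (238 and 171) and the median of ratios (231 and 177). In the dendritic core, 16 members were then higher with UBM, 8 when totals left out ribosomal protein genes and Malat1, and with saline 1 was lower without cells above 10% mitochondrial UMIs. In the macrophage core 1 member was higher with UBM when F2 and R3 were left out of the other cells. Between UBM and saline R1 cells, dendritic core genes gave 4 higher with no minimum and 1 higher without ribosomal protein genes and Malat1, against none. They gave 12 higher and 3 lower in S2, and 12 and 4 in the other Cd209a sub-cluster, where macrophage core genes gave 4 higher and 5 lower, and 3 and 9 in S2. Clustering all cells again without the marker genes put the new cluster richest in R1 at 6.75% of UBM and 21.7% of saline cells. It held 166 of the 349 R1 cells, and another new cluster held 137. Resolution 1.0 gave 9 sub-clusters. Among reported single-gene values past 2-fold, 4 changed sign. Gzma came to a log2 ratio of -0.058 in R1 over other cells with UBM without the 7 cells with NK cell genes. Between UBM and saline, Cd68 came to -0.30 in S2 and -0.14 in the Cd209a sub-cluster found without the 2-fold genes, and Mmp12 to -0.27 in S2. Over all 223 genes chosen for naming in any comparison, 94 were past 2-fold between UBM and saline R1 cells, and 8 of these changed sign in S2 and 6 in the other sub-cluster, as did 49 and 35 of the 129 under 2-fold. In S2, Plbd1 came to 0.70 (-1.41 in all R1 cells), Napsa to 0.85 (-1.21), C1qa to -1.39 (0.31) and Fn1 to -0.47 (0.53). The alternatives without the 7 cells and inside the sub-clusters were chosen after seeing the data. Depth limits PCL and saline R1 most, since 14 and 46 cells stand behind them. The cause of the other changes was not tested. No paired analysis was possible because each treatment had 1 library and no replicate.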
